A study of Mus musculus with 6 samples.

Results

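The genes described here build, carry, modify or break down sugar chains on proteins and lipids. There were 9 of them among the 53647 features of the deposited table, chosen by gene symbol with earlier results of these data known. Sialic acid, the charged sugar that ends many glycans, is represented by Gne, Nans, Slc35a1 and Casd1. Glucosylceramide, the lipid from which most glycosphingolipids are built, is represented by Ugcg, which makes it, and Gba2, which breaks it down. Galnt12 starts mucin-type O-glycans, B4galt1 adds galactose to glycans in the Golgi, and Alg2 adds mannose to the lipid-linked precursor of N-glycans. Sialic acid is made in the cytosol, activated with a nucleotide in the nucleus and carried into the Golgi, where it is attached to glycans. In breast cancer cells, as in other epithelial cells, these chains cover adhesion molecules, receptors and mucins.

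The cells were D2.OR, a mouse breast cancer line used to study tumour dormancy. One group carried a lentiviral short hairpin RNA against SLX4IP (shSLX4IP, n = 3) and the other a scrambled hairpin (Scram, n = 3). Both groups were puromycin-selected and grown on basement membrane extract in 3D culture for 7 days, with 1 hairpin against SLX4IP named and no statement of whether the lines were pools or clones. The design addresses how depletion of SLX4IP, a protein that binds the nuclease scaffold SLX4, changes the transcriptome; the titles call the samples biological replicates, without saying whether they came from separate cultures, and the p-values measure the spread between these samples.

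Each library held 5433573 to 6693111 recovered reads. The deposited value is a normalised count, that is, a read count divided by 1 size factor per library. Gene identifiers could not be relied on across the whole table: outside 4 chromosome segments, 109 of 217 genes of widely used families were listed at 0 in all libraries. These genes were picked by symbol, such as those of ribosomal proteins and the proteasome, and not each of them need be active in these cells. In the segments of chromosomes 4 and 6 that hold the 9 genes, 0 of 5 such genes were listed at 0. The segments were drawn from these same values, as runs of genes with a high mean. Their choice therefore favoured such a count, and also favoured neighbours with reads around the 9 genes. A gene is called placed if it lies in 1 of the 4 segments or in the mitochondrial genome. Of the 10 protein-coding genes nearest to each of the 9, between 5 and 8 had a mean of at least 10. Slx4ip lies outside the segments and was listed at 0 in all 6 libraries, so the depletion could not be checked. Of 20 cell type markers 4 were placed, 1 of 8 epithelial, 3 of 8 mesenchymal and 0 of 4 immune ones. The epithelial marker Grhl2 was at 2.93 to 20.7 in shSLX4IP and at 16.8 to 68.8 in Scram. The other epithelial markers are not placed, so the epithelial identity of the line could not be checked on them. Of these, Krt8, Epcam and Elf3 were listed at 0 in all libraries, and Krt7, Krt18 and Cldn7 at 0 to 7.81. Cdh1 was listed at 484 to 585 in shSLX4IP and at 380 to 728 in Scram. The mesenchymal markers Col1a2, Zeb1 and Cav1 together summed to 15081 to 15818 in shSLX4IP and to 41469 to 47066 in Scram, but they differed among themselves. Col1a2 was at 239 to 302 in shSLX4IP and at 20226 to 25022 in Scram, and Cav1 at 13418 to 14103 in shSLX4IP and at 20895 to 21283 in Scram. Zeb1 was higher, at 1423 to 1484 in shSLX4IP and at 349 to 961 in Scram. Their part in the results below was not tested. Scram A stood apart from the other libraries. It correlated with Scram B and C at 0.763 and 0.804 across features, which are not independent replicates, while Scram B and C correlated at 0.876. In Scram A the median log2 ratio of placed genes to the mean of the 6 libraries was 0.88 over the 118 genes of shortest exonic length and -0.23 over the 118 of longest exonic length. In the other libraries these medians lay between -0.29 and 0.13 for the short genes and between -0.0013 and 0.11 for the long ones. Results are therefore given with and without Scram A.

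Galnt12 was almost lost in shSLX4IP, while B4galt1 and Gba2 rose by about the same proportion and Ugcg and Gne stayed within the spread of the libraries. With 6 libraries, 2 of the 9 genes were higher (B4galt1 and Gba2) and 1 lower (Galnt12) in shSLX4IP at an adjusted p under 0.05 (limma on log2(value + 1), Benjamini-Hochberg adjustment over all features tested). The background was 11.7% higher and 11.3% lower of the 8127 features tested, and 17.3% and 22.9% of the 462 placed ones. Every shSLX4IP value lay above, or every one below, the Scram values for 7 of the 9 genes, beside 53.5% of all features tested and 67.1% of placed ones. Without Scram A, 3 genes were higher (Casd1 in addition) and 3 lower (Nans and Alg2 in addition), beside 29.0% and 36.1% of placed features and 23.3% and 19.4% of all features. The counts of the 9 genes were thus of the same order as the background. The median log2 fold change was -0.23 over the 9 genes, -0.23 over placed features and 0.25 over all features. All fold changes are shSLX4IP over Scram on the log2(value + 1) scale, and SE is the standard error that limma gives.

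**Figure D1:**
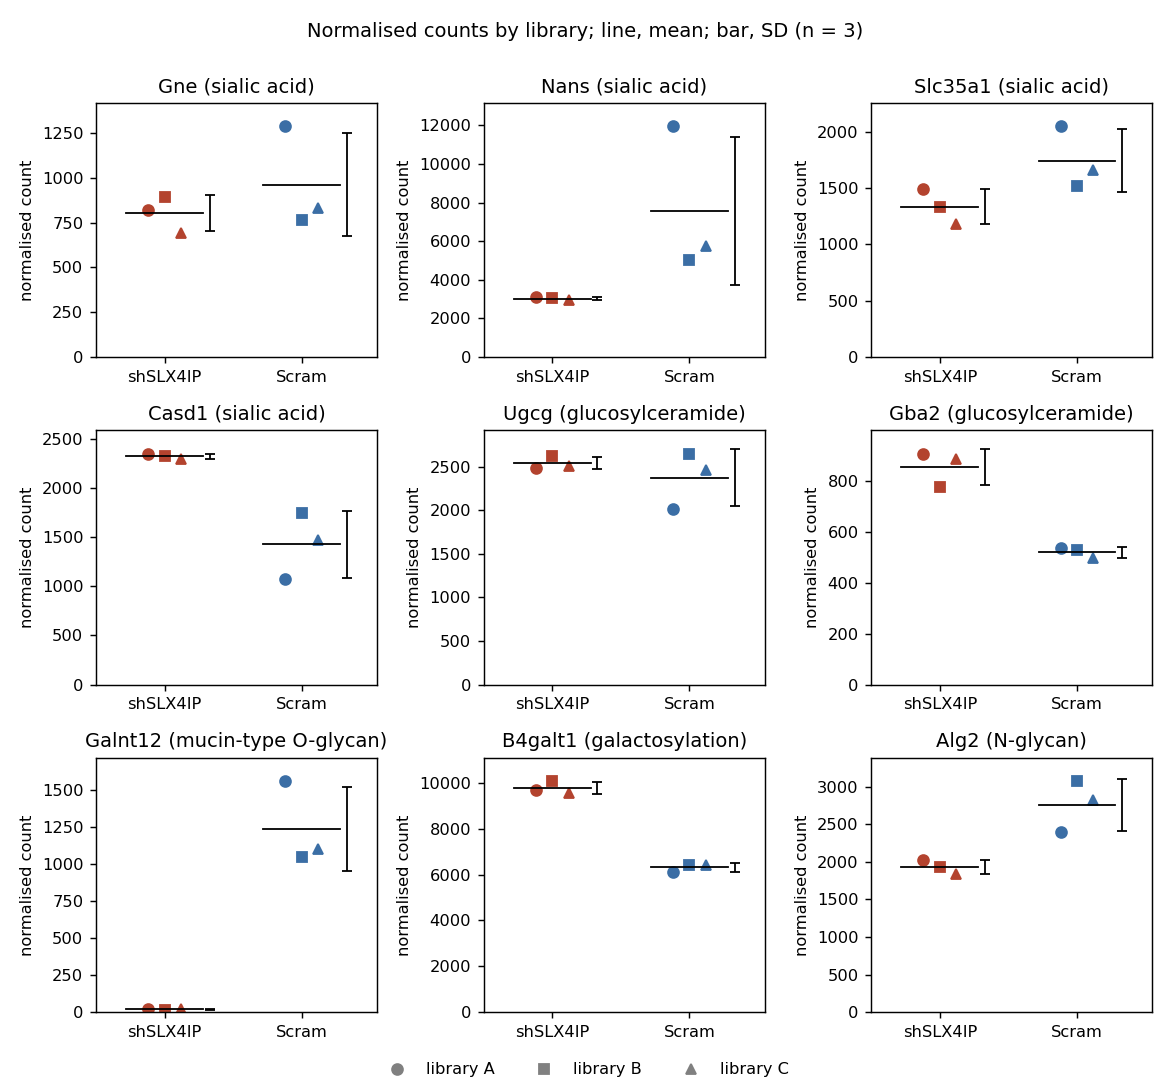
Normalised counts of the 9 genes (vertical axes, linear from 0) in 3 shSLX4IP and 3 Scram libraries, with the mean as a line and the SD as a bar. Galnt12 lay at 13.7 to 23.6 in shSLX4IP, and the groups overlapped for Ugcg and Gne.

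Galnt12 (ENSMUSG00000039774.13, GRCm38 chromosome 4, 47091909 to 47123070, plus strand) encodes a polypeptide N-acetylgalactosaminyltransferase, an enzyme that attaches the first sugar of a mucin-type O-glycan to serine or threonine. The libraries held normalised counts of 23.6, 13.7 and 18.3 in shSLX4IP A, B and C, against 1561, 1050 and 1102 in Scram A, B and C. All Scram libraries were far above all shSLX4IP libraries. The values in shSLX4IP rested on 26, 14 and 23 reads, and those in Scram on 1066, 1124 and 1209. It fell to a mean of 18.5 ± 4.95 in shSLX4IP, against 1238 ± 281 in Scram (SD, n = 3 each), so that the mean in Scram was 66.9 times as high. On the log2 scale the fold change was -6.00 (SE 0.31, limma adjusted p = 0.000363). A log2 fold change of -5 or less, a limit set after the values were seen, was reached by 1.66% of all features tested and 3.68% of placed ones. Without Scram A it was -5.82 (limma adjusted p = 0.000339), and the call held in each of 20 other settings, with log2 fold changes between -6.62 and -5.36. No exon of another annotated gene overlaps its exons. In these bulk samples, fewer cells that express a gene and less of its RNA per cell cannot be told apart.

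C1galt1, the galactosyltransferase that extends the sugar placed by Galnt12 and its relatives, did not pass. Normalised counts of this gene were 2661, 2483 and 2460 in shSLX4IP A, B and C, against 1741, 2679 and 2348 in Scram A, B and C (limma log2 fold change 0.19, SE 0.19, adjusted p = 0.479). The groups overlapped, and without Scram A the log2 fold change was 0.01. No other gene of the mucin-type O-glycosylation list was placed, and the rest are not analysed here.

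B4galt1 (ENSMUSG00000028413.14, chromosome 4, 40804602 to 40854005, minus strand) is the Golgi galactosyltransferase that, with α-lactalbumin, also forms lactose synthase in the lactating mammary gland. The deposited values were 9684, 10081 and 9570 in shSLX4IP A, B and C, against 6103, 6417 and 6432 in Scram A, B and C. The groups were well apart, and Scram A stood close to Scram B and C after division by its size factor, with 4168 reads in Scram A, 6869 in Scram B and 7057 in Scram C. The mean rose to 9778 ± 268 in shSLX4IP, against 6317 ± 185 in Scram (SD, n = 3 each), a log2 fold change of 0.63 (SE 0.10, limma adjusted p = 0.0100). Without Scram A the log2 fold change was 0.61 (limma adjusted p = 0.00131). In 5 of 20 other settings it was no longer called, including those that left out 1 shSLX4IP library (limma adjusted p 0.0604 to 0.0704), with log2 fold changes between 0.61 and 1.13 over all settings.

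Alg2 (ENSMUSG00000039740.7, chromosome 4, 47465067 to 47474333, minus strand) encodes a mannosyltransferase that acts on the cytosolic face of the endoplasmic reticulum. In normalised counts it stood at 2026, 1936 and 1839 in libraries A, B and C of shSLX4IP, against 2391, 3073 and 2819 in Scram A, B and C. Every shSLX4IP library lay under every Scram library, and Scram A was the nearest. The means were 1934 ± 93.3 in shSLX4IP and 2761 ± 345 in Scram (SD, n = 3 each). With a log2 fold change of -0.51 (SE 0.15) it missed the threshold (limma adjusted p = 0.0581). It passed without Scram A at -0.61 (limma adjusted p = 0.00382), but with the trend with exonic length removed the log2 fold change was -0.28 (adjusted p = 0.239). It was -0.16 scaled to total reads (limma adjusted p = 0.675) and -0.09 with quantile normalization (limma adjusted p = 0.807).

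**Figure D2:**
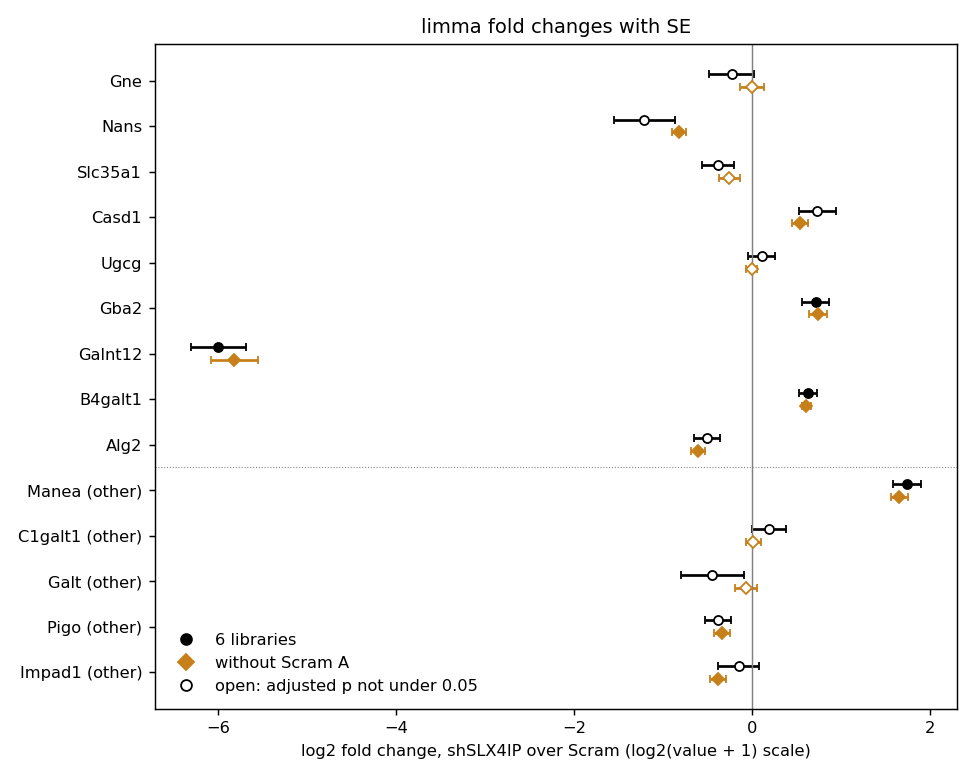
Log2 fold change of shSLX4IP over Scram with its SE (horizontal axis) for the 9 genes and, under the dotted line, 5 other placed glycosylation genes, with 6 libraries (circles) and without Scram A (diamonds). Filled symbols passed the threshold; Galnt12 at -6.00 lies far to the left, and Nans, Casd1 and Alg2 are filled only without Scram A.

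Of the sialic acid genes, Nans was lower and Casd1 higher in shSLX4IP in every library, and both missed the threshold with 6 libraries and passed it without Scram A, the library in which each was farthest from the shSLX4IP values. Gne and Slc35a1 did not pass in either case, though every shSLX4IP value of Slc35a1 also lay below the Scram values. The groups did not overlap for 67.1% of placed features and 53.5% of all features tested. The products of these 4 genes act in the order Gne, Nans, Slc35a1 and Casd1. In either direction, 40.3% of placed features and 23.0% of all features were called with 6 libraries, and 65.2% and 42.7% without Scram A.

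Gne (ENSMUSG00000028479.19, chromosome 4, 44034075 to 44084177, minus strand) encodes the epimerase and kinase that starts sialic acid synthesis and is feedback-inhibited by its nucleotide-activated product. The libraries held normalised counts of 821, 891 and 693 in shSLX4IP A, B and C, against 1289, 762 and 833 in Scram A, B and C. The groups overlapped, with Scram A alone above the rest. The recovered reads were 906, 913 and 870 in shSLX4IP and 880, 816 and 914 in Scram, so the height of Scram A rests on its size factor. The log2 fold change was -0.23 (SE 0.25, 95% confidence interval -0.85 to 0.39, limma adjusted p = 0.510), 0.00062 without Scram A and 0.11 when scaled to the total reads of each library. No direction can be given for Gne.

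Nans (ENSMUSG00000028334.11, chromosome 4, 46489248 to 46503632, plus strand) encodes sialic acid synthase, which joins the phosphorylated product of Gne with phosphoenolpyruvate. Normalised counts of this gene were 3110, 3041 and 2936 in shSLX4IP A, B and C, against 11974, 5017 and 5736 in Scram A, B and C. The groups did not overlap, and Scram A was at 2.23 times the mean of Scram B and C. The means were 3029 ± 87.6 in shSLX4IP and 7576 ± 3826 in Scram (SD, n = 3 each). The log2 fold change of -1.21 (SE 0.34) missed the threshold with 6 libraries (limma adjusted p = 0.0546). Without Scram A it was -0.82 (SE 0.08, limma adjusted p = 0.00176), and with the trend with exonic length removed -1.10 (adjusted p = 0.0181). It passed in 10 of 20 other settings, and its log2 fold changes lay between -1.45 and -0.63. Exons of Trim14 on the other strand cover 29.6% of the exonic length of Nans. Trim14 was at 1177 to 1362 in shSLX4IP and at 104 to 326 in Scram, so it was higher in shSLX4IP where Nans was lower; the strand setting of the counting is not given in the sources used here.

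Slc35a1 (ENSMUSG00000028293.15, chromosome 4, 34663257 to 34687438, minus strand) encodes the transporter that takes nucleotide-activated sialic acid into the Golgi. The deposited values were 1489, 1335 and 1181 in shSLX4IP A, B and C, against 2052, 1517 and 1663 in Scram A, B and C. The groups did not overlap, but shSLX4IP A and Scram B lay close together. The log2 fold change of -0.38 (SE 0.18, 95% confidence interval -0.82 to 0.06) missed the threshold (limma adjusted p = 0.176), as did the value of -0.26 without Scram A (adjusted p = 0.151). It did not pass in any of 20 other settings. Its value on the log2 scale was -0.04 scaled to total reads, -0.03 with quantile normalization and -0.04 with the trend with exonic length removed. An exon of the small RNA gene Gm22849 on the other strand, for which no value was listed, covers 3.62% of the exonic length of Slc35a1.

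Casd1 (ENSMUSG00000015189.13, chromosome 6, 4600839 to 4643355, plus strand) encodes a Golgi enzyme that O-acetylates sialic acid. In normalised counts it stood at 2350, 2323 and 2297 in libraries A, B and C of shSLX4IP, against 1069, 1744 and 1467 in Scram A, B and C. The shSLX4IP libraries were nearly equal and above every Scram library. The means were 2323 ± 26.6 in shSLX4IP and 1427 ± 339 in Scram (SD, n = 3 each). The log2 fold change of 0.73 (SE 0.21) missed the threshold (limma adjusted p = 0.0555). It passed without Scram A at 0.54 (limma adjusted p = 0.00962) and in 8 of 20 other settings in all. Its log2 fold changes lay between 0.54 and 1.07.

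Ratios of 2 genes within a library do not depend on the size factor. Normalised counts of Gne were 0.264, 0.293 and 0.236 times those of Nans in shSLX4IP A, B and C, against 0.108, 0.152 and 0.145 times in Scram A, B and C. The ratio of Slc35a1 to Nans was 0.479, 0.439 and 0.402 in shSLX4IP A, B and C, against 0.171, 0.302 and 0.290 in Scram A, B and C. Both ratios were higher in every shSLX4IP library, by 0.98 and 0.83 on the log2 scale, and by 0.83 and 0.57 without Scram A. The ratio of Casd1 to Slc35a1 was 1.58, 1.74 and 1.95 in shSLX4IP A, B and C, against 0.521, 1.15 and 0.882 in Scram A, B and C. That ratio was likewise higher in every shSLX4IP library, by 1.11 on the log2 scale and by 0.80 without Scram A. The exact permutation test over samples (2-sided) gave p = 0.1 for each of the 4 ratios computed. That is the smallest p that 3 samples against 3 allow, and it was not adjusted over the 4 ratios. The ratios are not independent, as Nans and Slc35a1 each enter more than 1 of them. Each pair also holds a gene whose groups did not overlap by itself, as was so for 67.1% of placed features. How often the groups do not overlap for other gene pairs was not computed.

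Of the glucosylceramide genes, Gba2 rose and no change of Ugcg was detected; the difference between them, given by their ratio, could not reach the threshold with 3 samples a group. Ugcg (ENSMUSG00000028381.9, chromosome 4, 59189257 to 59222833, plus strand) encodes glucosylceramide synthase, which transfers glucose to ceramide at the Golgi. The libraries held normalised counts of 2491, 2622 and 2512 in shSLX4IP A, B and C, against 2019, 2652 and 2459 in Scram A, B and C. The shSLX4IP values lay inside the Scram range. The log2 fold change was 0.11 (SE 0.15, 95% confidence interval -0.26 to 0.47, limma adjusted p = 0.608) and -0.01 without Scram A (SE 0.07). It did not pass in any of 20 other settings, in which the log2 fold change reached 0.52 with quantile normalization and 0.45 scaled to total reads.

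Gba2 (ENSMUSG00000028467.16, chromosome 4, 43566928 to 43578873, minus strand) encodes the non-lysosomal glucosylceramidase, which splits glucosylceramide into glucose and ceramide outside the lysosome. Normalised counts of this gene were 908, 776 and 884 in shSLX4IP A, B and C, against 536, 529 and 496 in Scram A, B and C. The Scram libraries were close together after division by the size factors, at 366, 566 and 544 reads, and all below shSLX4IP. The mean rose to 856 ± 70.2 in shSLX4IP, against 520 ± 21.4 in Scram (SD, n = 3 each), a log2 fold change of 0.72 (SE 0.15, limma adjusted p = 0.0248). Without Scram A the log2 fold change was 0.74 (limma adjusted p = 0.00517). In 7 of 20 other settings it was no longer called, including the one that left out Scram C (limma adjusted p = 0.0787) and those that left out 1 shSLX4IP library (limma adjusted p 0.0611 to 0.0960); the log2 fold change stayed between 0.67 and 1.05. Exons of Creb3 and Rgp1 on the other strand cover 2.97% and 3.55% of its exonic length. Creb3 was at 966 to 1121 in shSLX4IP and at 2408 to 5920 in Scram. Rgp1 was at 1736 to 1883 in shSLX4IP and at 1718 to 1955 in Scram. Within a library, Ugcg stood at 2.74, 3.38 and 2.84 times the normalised count of Gba2 in shSLX4IP A, B and C, against 3.77, 5.02 and 4.96 times in Scram A, B and C. The ratio was lower in every shSLX4IP library, by -0.61 on the log2 scale (exact permutation p = 0.1) and by -0.74 without Scram A.

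**Figure D3:**
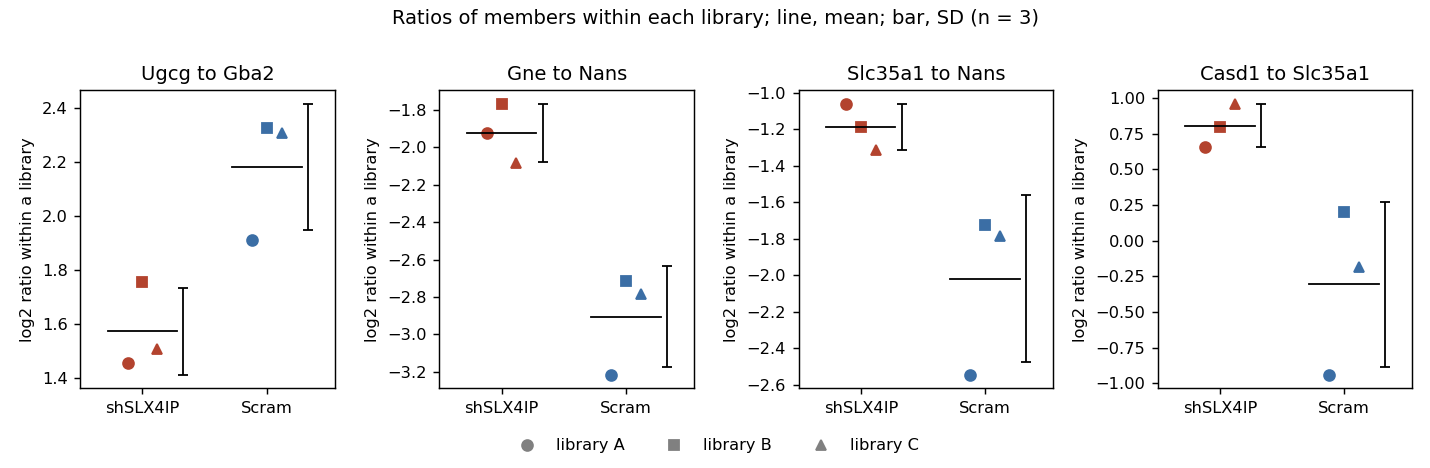
Log2 ratio of the normalised counts of 2 genes within each library (vertical axes), for 3 shSLX4IP and 3 Scram libraries, with the mean as a line and the SD as a bar. The groups do not overlap in any of the 4 panels, and Scram A is the lowest library in the 3 panels of sialic acid genes. The panels share genes, and other gene pairs were not computed for comparison.

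Promoter windows of B4galt1, Gba2 and Casd1 are shown because these are the 3 genes that were higher in shSLX4IP without Scram A, the first and second of them also with 6 libraries. Each runs from 250 bases before to 50 after a RefSeq start (GRCm38.p6), on the strand of the gene, and of the 9 genes 6 had such a window and Galnt12, Nans and Alg2 had none. Capitals mark matches to the motifs searched on both strands: the GC box GGGCGG, the CCAAT box CCAAT, the E-box CACGTG and the TATA box TATAAA. The windows lie at chr4:40853935-40854234 on the minus strand for B4galt1, at chr4:43578815-43579114 on the minus strand for Gba2 and at chr6:4600661-4600960 on the plus strand for the upstream one of 2 starts of Casd1.
B4galt1: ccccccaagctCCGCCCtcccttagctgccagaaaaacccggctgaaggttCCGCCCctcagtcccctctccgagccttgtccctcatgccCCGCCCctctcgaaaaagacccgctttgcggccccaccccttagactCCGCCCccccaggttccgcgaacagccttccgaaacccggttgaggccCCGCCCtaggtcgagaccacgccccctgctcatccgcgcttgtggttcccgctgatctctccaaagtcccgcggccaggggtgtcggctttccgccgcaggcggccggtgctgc
Gba2: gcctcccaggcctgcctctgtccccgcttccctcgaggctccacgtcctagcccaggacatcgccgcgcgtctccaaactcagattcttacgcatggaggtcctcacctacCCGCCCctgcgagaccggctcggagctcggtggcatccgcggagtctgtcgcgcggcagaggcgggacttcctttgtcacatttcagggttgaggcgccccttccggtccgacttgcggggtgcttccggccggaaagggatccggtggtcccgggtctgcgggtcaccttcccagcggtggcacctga
Casd1: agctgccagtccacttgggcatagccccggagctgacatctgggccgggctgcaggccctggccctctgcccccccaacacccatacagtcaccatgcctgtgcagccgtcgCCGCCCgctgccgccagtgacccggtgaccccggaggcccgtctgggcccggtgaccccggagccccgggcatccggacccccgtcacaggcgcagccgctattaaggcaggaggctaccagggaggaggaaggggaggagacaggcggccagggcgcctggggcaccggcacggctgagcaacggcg
B4galt1 held 5 GC boxes, Gba2 held 1 and this window of Casd1 held 1. The window of Ugcg, the gene with no change detected, held 2. That of Slc35a1 held 1 GC box and 1 TATA box, and neither window of Gne held any of the motifs. No 2 motifs overlapped in these windows. Among 32851 windows of the same length, 35.7% held a GC box, 2.71% held 5 or more, 37.4% held a CCAAT box, 7.15% an E-box and 13.6% a TATA box. No match to the CCAAT box or the E-box was found in the windows of the 6 genes, which says only that these letters are not in them.

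Per kilobase of annotated exon, B4galt1 stood highest of the 9 genes in shSLX4IP, at 2309 ± 63.3 normalised counts per kb (SD, n = 3). Nans, Slc35a1, Casd1 and Alg2 followed between 661 ± 19.1 and 560 ± 27.0 per kb, and neighbours in that order overlapped. Ugcg stood at 488 ± 13.5, Gba2 at 191 ± 15.7, Gne at 126 ± 15.8 and Galnt12 at 8.09 ± 2.16 per kb in shSLX4IP, each apart from the next. In Scram, Nans was at 1654 ± 835 and B4galt1 at 1492 ± 43.8 per kb, with overlapping values. Alg2 at 800 ± 99.9, Slc35a1 at 761 ± 120, Galnt12 at 541 ± 123, Ugcg at 456 ± 62.2 and Casd1 at 353 ± 84.1 per kb formed a series in Scram in which each overlapped the next. Gne at 151 ± 44.9 and Gba2 at 116 ± 4.77 per kb were the lowest in Scram. In shSLX4IP every library of Gba2 was above every library of Gne per kb, and in Scram every library of Gba2 was below. The margin in Scram was narrow, with the highest Gba2 value at 119.6 and the lowest Gne value at 119.9 per kb. Galnt12 was the fifth of the 9 in Scram and the last in shSLX4IP. The order in Scram depended on Scram A. In Scram B and C, B4galt1 at 1516 and 1519 per kb stood above Nans at 1095 and 1252, Ugcg above Galnt12, which was then the 6th, and only Ugcg and Galnt12 overlapped as neighbours. These levels use the union of all annotated exons, and exons that the cells do not use lower them.

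**Figure D4:**
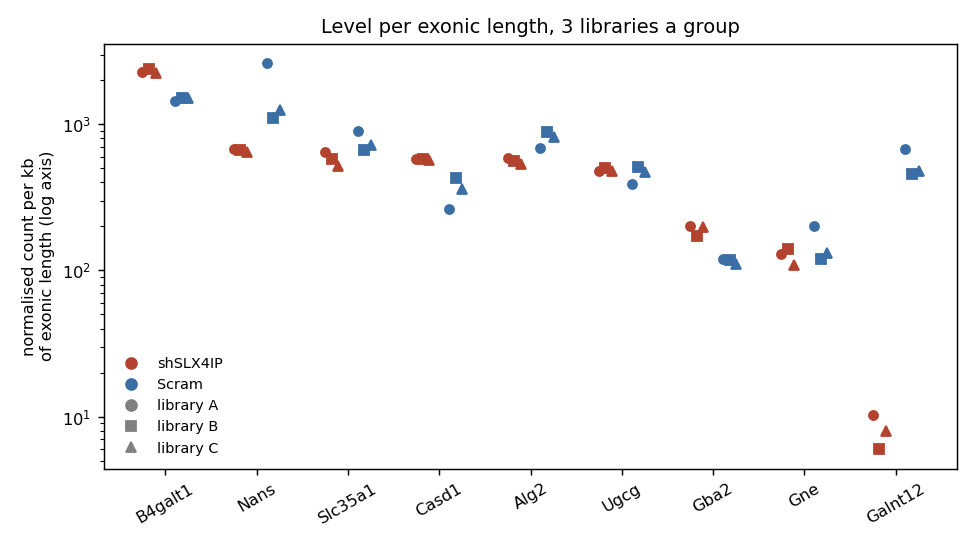
Normalised count per kb of exonic length (logarithmic vertical axis) of the 9 genes in each library, shSLX4IP left of Scram for each gene. Galnt12 is the lowest gene in shSLX4IP, at 5.97 to 10.3 per kb, and lies at 459 to 682 per kb in Scram.

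Of 335 glycosylation genes listed by step, 21 were placed. Besides the 9 described above, 5 were tested, and 7 (Fut9, Hyal4, Hyal5, Hyal6, Spam1, Ugt3a1 and Ugt3a2) were listed at 0 in all libraries. Of the 5, 1 was higher and 0 were lower by limma, beside 17.3% and 22.9% of placed features and 11.7% and 11.3% of all features. By limma 1 more (Pigo) had an unadjusted p under 0.05, beside 58.0% of placed features and 38.8% of all features at that limit in either direction, called ones included. Manea, the Golgi endomannosidase that trims glucosylated mannose from N-glycans, was at 2085, 1872 and 1768 in libraries A, B and C of shSLX4IP, against 505, 623 and 590 in Scram A, B and C. All shSLX4IP libraries were above all Scram libraries. The log2 fold change of Manea was 1.74 (SE 0.16, limma adjusted p = 0.00161), it was 1.65 without Scram A (limma adjusted p = 0.000543), and the call held in each of 20 other settings.

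The remaining 4 did not pass with 6 libraries. Pigo, which adds phosphoethanolamine to glycosylphosphatidylinositol anchors, was at 877, 1002 and 1002 in libraries A, B and C of shSLX4IP, against 1328, 1243 and 1183 in Scram A, B and C (log2 fold change -0.38, SE 0.14, limma adjusted p = 0.107). Impad1, a Golgi phosphatase needed for the sulfation of proteoglycans, was at 4847 to 5442 in shSLX4IP and at 4067 to 7014 in Scram (log2 fold change -0.15, SE 0.23, limma adjusted p = 0.628), with Scram A the lowest. Both passed without Scram A, Pigo at -0.34 (limma adjusted p = 0.0384) and Impad1 at -0.39 (limma adjusted p = 0.0232). DESeq2 also called Pigo lower, and no other setting called either gene. Over the 20 other settings the log2 fold change lay between -0.42 and -0.04 for Pigo and between -0.39 and 0.32 for Impad1, so that no direction can be given for Impad1. Galt, the uridylyltransferase of galactose metabolism, was at 540 to 660 in shSLX4IP and at 1406, 596 and 674 in libraries A, B and C of Scram. Galt was not called with or without Scram A.

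Of 344 placed genes at a mean level of 100 or more, the one most like each of the 9 was sought by Pearson's r of log2(value + 1) over the 6 libraries, which fall into the 2 groups and share the features of Scram A. For Galnt12 it was Cavin4 (r = 0.998), at 42.0 to 56.5 in shSLX4IP and 1957 to 2920 in Scram. For Nans it was the thioredoxin gene Txn1 (r = 0.9997), at 12837 to 13936 in shSLX4IP and at 83723, 26780 and 31173 in libraries A, B and C of Scram, so both were highest in Scram A. Pot1a was the most alike for B4galt1 (r = 0.997), Ube2h for Gba2 (0.982), Dpy19l4 for Casd1 (0.996) and Tstd2 for Alg2 (0.995). Msantd3 was the one for Slc35a1 (0.976), Abca1 for Ugcg (0.968) and Fam173b for Gne (0.961). Values of r above 0.9 were shared with 86 genes for Galnt12 and with 11 for Gne, so the likeness is not particular to the named gene.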

How the data were processed

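RNA from 6 libraries (2 groups of 3) was measured. The deposited signal per gene is the authors' normalised count. Tools named, per the submitters' processing notes, are DESeq2 1.22.1, StringTie 2.1.7, STAR 2.7.7 and fastp 0.19.5, with build GRCm38. Not given in the sources used here are the annotation, the filters and the strand setting. Reads were recovered by dividing each column by its step, and at least 99.976% of values above 0 lay within 0.1 of a whole number. Column letters A, B and C are not tied to replicate numbers. Genes were matched to GENCODE M21 (GRCm38) by identifier without version; the versions differ from M21 for the 9 genes. Placed segments were maximal-scoring runs (score at least 30) of protein-coding genes, scoring 3 for a mean of at least 1000 and -1 otherwise, chosen after the values were seen. Features with a mean of at least 10 were tested with limma 3.58.1 (R 4.3.3), with an intensity trend on log2(value + 1), 2-sided. With 3 libraries a group, a gene that did not pass is not thereby shown to be unchanged. Alternatives were other pseudocounts, filters and scalings, limma without the trend, edgeR 4.0.16 and DESeq2 1.42.0 on recovered reads, adjustment over placed features, removal of a trend with exonic length, a block by column letter and leaving out each library. On the recovered reads edgeR called 712 features higher and 854 lower, and DESeq2 1602 and 1624. The 9 genes, the gene lists and the pairs in ratios were chosen with earlier results of these data known. Named are the 9 genes, listed genes that are placed, genes whose exons overlap theirs, and the most alike gene of each. Of the glycosylation genes, 1 is not reported here and was left out of the list and its counts.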

Additional observations from a re-analysis of the deposited data

How the results depend on the processing

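Over 20 other settings Galnt12 kept its direction and its call. The other pathway genes kept 1 higher call in each setting, and 0 lower calls in all but DESeq2 (1) and without Scram A (2); leaving out a library gave 0 to 2. The number of the 9 genes called higher, 2, was 1 without a filter 0 without the trend or with the block, 3 with a mean of at least 50, size factors over placed genes, quantile normalization, DESeq2, adjustment over placed features or the length trend removed, and 0 to 3 when a library was left out. The number called lower, 1, was 2 with a pseudocount of 10, a mean of at least 50, TMM, scaling to total reads, quantile normalization, edgeR or the length trend removed, 3 with DESeq2 or adjustment over placed features, and 1 to 3 when a library was left out. At unchanged log2 fold changes, B4galt1 (0.63) and Gba2 (0.72) lost their calls without the trend and with the block, and Gba2 also without a filter. Nans passed at -1.21 with a pseudocount of 10 and over placed features, -1.20 with TMM, -0.87 with scaling to total reads, -0.63 with quantile normalization, -1.29 with edgeR, -1.33 with DESeq2 and -1.10 with the length trend removed. Casd1 passed at 0.73 with a mean of at least 50 and over placed features, 0.90 with size factors over placed genes, 1.07 with quantile normalization, 0.70 with DESeq2 and 0.90 with the length trend removed. Alg2 passed at -0.51 with a mean of at least 50 and over placed features and at -0.52 with DESeq2. Gne turned to 0.11 with scaling to total reads. The causes were not tested, except that over placed features only the fit was unchanged and fewer features were adjusted over. With a mean of at least 50 fewer features were adjusted over and the fit was also redone. Leaving out 1 library gave log2 fold changes of -6.18 to -5.81 for Galnt12, 0.61 to 0.65 for B4galt1, -0.0072 to 0.19 for Ugcg, 0.67 to 0.78 for Gba2, -0.38 to 0.00062 for Gne, -1.45 to -0.82 for Nans, -0.47 to -0.26 for Slc35a1, 0.54 to 0.89 for Casd1 and -0.61 to -0.43 for Alg2. The median of all features, 0.25, was 0.51 with scaling to total reads, 0.41 with size factors over placed genes and -0.0028 with quantile normalization. The replicate block by column letter gave 365 higher and 309 lower features, against 952 and 920 without it. Libraries of the same letter did not deviate together (r = -0.02, -0.0093 and -0.00073 across features). Whether samples of the same letter were handled as pairs cannot be settled by these values. Depth limits Galnt12 in shSLX4IP most, at 14 to 26 reads.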
